A study of Mus musculus with 16 samples.

Results

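A culture of 10 days with IL-1β, butyrate or their combination were compared in mouse islets for 10 genes that mark fibroblasts, stellate cells and pericytes. The genes were *Cd248*, *Pdgfra*, *Pdgfrb*, *Dcn*, *Lum*, *Acta2*, *Tagln*, *Thy1*, *Rgs5* and *Sparc*, and collagens were not included. They were chosen as mesenchymal markers by symbol, with earlier results of these data known, and all 10 were found by Ensembl identifier among the 52636 genes of the count table. A filter on low counts left 18587 genes for testing, with 9 of the 10 among them, and *Tagln* was the gene that did not pass.

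Islets are clusters of endocrine cells, and fibroblasts, stellate cells and pericytes are the mesenchymal cells found between and around them. Pericytes wrap the capillaries of the islet and depend on platelet-derived growth factor B made by the endothelium, which acts on the receptor PDGFRβ. Fibroblasts and stellate cells use receptors of the same family, PDGFRα among them, deposit the extracellular matrix and, once activated, take on contractile proteins such as smooth muscle actin.

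The islets came from male C57BL/6JRj mice aged 12 weeks, the strain being given as C57BL/6NRj in the methods of the study. All groups spent the 10 days in RPMI medium with 2% human serum and antibiotics, and 500 islets were used for each condition, so a library is a pool of islets and not a mouse. The control group received no addition, the IL-1β group 50 pg/mL recombinant mouse IL-1β (a pro-inflammatory cytokine), the butyrate group 0.2 mM sodium butyrate (a short chain fatty acid and inhibitor of histone deacetylases), and the IL-1β + butyrate group both. There were 4 libraries for each of the 4 groups, from independent experiments, and whole islets were sequenced without sorting of cells.

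Upstream sequence from the RefSeq promoter table (GRCm38.p6) was used for 4 of the 10 genes, *Rgs5*, *Pdgfra*, *Sparc* and *Acta2*. It is shown for *Pdgfra*, a gene raised by butyrate, for *Rgs5*, a gene lowered by the combination, and in short stretches for *Acta2*, a gene lowered by IL-1β. For *Pdgfra* (chr5:75152001-75152250, plus strand) and *Rgs5* (chr1:169655251-169655500, plus strand) these are the 250 bases before the start, which overlap no exon in GENCODE, and capitals mark an E-box (CANNTG, searched on both strands).
Pdgfra: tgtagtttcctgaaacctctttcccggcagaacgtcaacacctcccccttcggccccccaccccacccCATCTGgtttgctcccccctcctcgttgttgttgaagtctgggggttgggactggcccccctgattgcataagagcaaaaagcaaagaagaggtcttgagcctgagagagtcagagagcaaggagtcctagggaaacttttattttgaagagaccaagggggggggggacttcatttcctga
Rgs5: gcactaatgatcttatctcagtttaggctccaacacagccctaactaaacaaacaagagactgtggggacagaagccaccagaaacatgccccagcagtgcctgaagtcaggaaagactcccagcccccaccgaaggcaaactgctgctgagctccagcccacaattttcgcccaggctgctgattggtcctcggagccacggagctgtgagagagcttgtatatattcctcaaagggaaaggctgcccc

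For *Acta2* the stretches are 30 bases long, at chr19:34255438-34255467 and chr19:34255388-34255417 on the minus strand. They lie from 94 to 65 bases and from 44 to 15 bases before the RefSeq start, within the first exon of a longer GENCODE transcript. Capitals mark a CArG box, the motif known for serum response factor at contractile genes, with 1 letter of its A/T core changed to C or G.
Acta2 distal: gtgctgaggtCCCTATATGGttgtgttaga
Acta2 proximal: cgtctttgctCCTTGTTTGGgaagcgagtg

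The CArG box in its strict form was in none of the 4 windows and in 1.47% of the 32851 windows of the table, and the form with 1 changed core letter, a search added after the *Acta2* sequence had been seen, was in 7.24% of them. The E-box was in 3 of the 4 windows and in 66.2% of all, while the TATA box TATAAA (12.4% of all), the GC box GGGCGG (32.7%) and the NF-κB site (3.9%) were in none of the 4. The promoters of *Cd248*, *Dcn*, *Lum*, *Tagln*, *Thy1* and *Pdgfrb* are not shown.

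Total counts were between 18635943 and 25955943 per library. As a check of the labelled tissue, 8 beta cell markers summed to between 137754 and 262255 CPM (counts scaled to a common library size by the TMM method) in every library. Against this the 10 mesenchymal genes together gave 8.54 to 18.9 CPM in control islets, 4.76 to 11.1 with IL-1β, 11.4 to 19.7 with IL-1β + butyrate and 15.3 to 20.8 with butyrate. A single library held between 92 and 450 reads on all 10 genes, so that every value rests on few reads. The libraries of the same condition differed by more than counting error, with a chi-square per gene from 1.72 to 13.5, and counts carry no molecular identifiers.

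Genes of the set were called in both directions, and the share of all genes called is given below for each comparison. Butyrate raised *Cd248* and *Pdgfra*, IL-1β lowered *Pdgfrb* and *Acta2*, and the combination lowered *Rgs5* below the level with butyrate alone. A gene was called raised or lowered at an adjusted p under 0.01 in edgeR's quasi-likelihood test over all genes. In these whole-islet libraries, fewer cells of a type and less RNA per cell cannot be told apart.

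With IL-1β compared with control, 2 of the 9 tested genes were lowered, as were 6.59% of all genes, and 0 were raised, against 11.2% of all. The median log2 fold change of the 9 genes was -0.59 and that of all tested genes -0.03. With IL-1β + butyrate compared with IL-1β, 1 was raised (8.41% of all) and 0 were lowered (11.1% of all), with a median of 0.59 against 0.01. With butyrate compared with control, 2 were raised (8.53% of all) and 0 were lowered (11.4% of all), with a median of 0.24 against 0.01. These comparisons are not independent, because they share their control or IL-1β libraries.

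The combination compared with control raised 2 genes (15.8% of all) and lowered 2 (14.8% of all). Compared with butyrate alone, it lowered 1 (4.86% of all) and raised 0 (9.92% of all). The difference between the effects of butyrate with and without IL-1β was past the threshold for 0 of the 9 genes in edgeR, against 0.0968% of all genes (0.043% raised and 0.0538% lowered), and 2 of the 9 had an unadjusted p under 0.05. DESeq2 gave an adjusted p for 3 of the 9 (*Cd248*, *Rgs5* and *Sparc*), of which 0 were past the threshold. Each of these counts thus rests on at most 2 genes in a direction.

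Some genes had all 4 libraries of a group above or below all 4 of the other. With IL-1β this was so for *Pdgfrb* and *Acta2*, 2 of the 9 genes, both lower (10.7% of all genes), and for the combination compared with IL-1β for *Cd248*, which was higher (12.3% of all). With butyrate it was so for 3 of the 9 genes (30.1% of all), *Cd248* and *Pdgfra* above control (13.3% of all) and *Acta2* below (16.8% of all). For the combination compared with control it was so for *Cd248* and *Pdgfra* above (19.3% of all) and *Acta2* below (19.2% of all), and compared with butyrate for *Rgs5*, which was lower (10% of all).

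**Figure D1:**
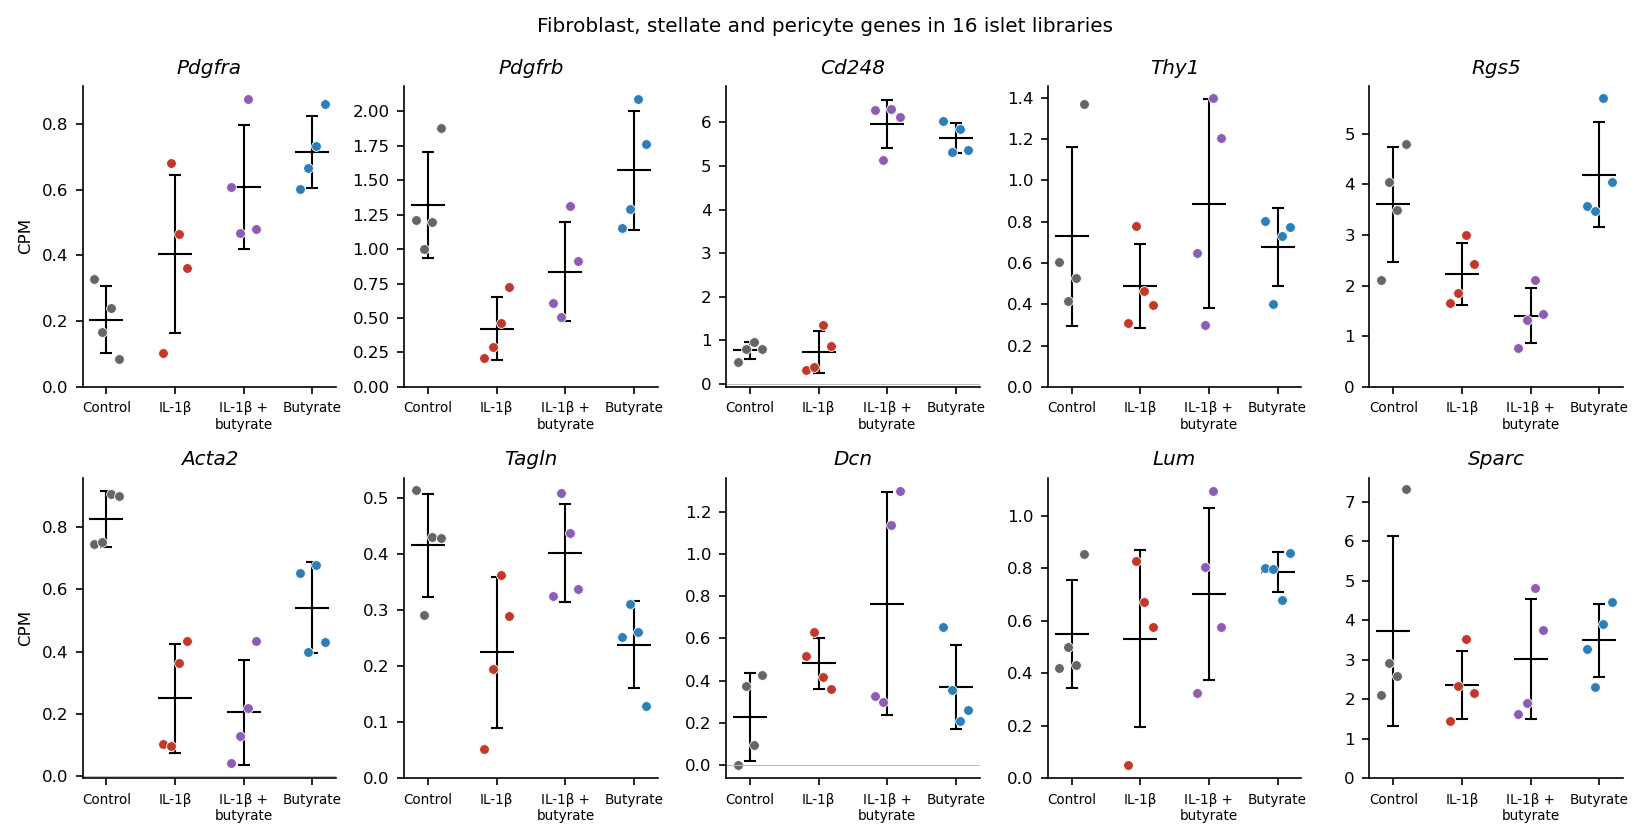
Level of each of the 10 genes (y axis, CPM, a linear axis of its own for each gene) in the 4 conditions, with a point for each of the 16 libraries and a line with bars for the mean ± SD. *Cd248* lies between 5.14 and 6.31 CPM in the 8 libraries with butyrate and between 0.31 and 1.35 CPM in the 8 without it, whereas *Sparc*, *Lum* and *Thy1* overlap across the conditions.

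Levels of different genes are compared per length, as RPKM, which are CPM divided by the length of the exons in kilobases. In control islets *Sparc* (0.985 ± 0.638 RPKM, SD, n = 4) and *Rgs5* (0.793 ± 0.2503) were the highest, followed by *Acta2* (0.376 ± 0.0407) and *Cd248* (0.295 ± 0.0710). *Thy1*, *Pdgfrb*, *Lum* and *Tagln* lay between 0.209 and 0.244 RPKM, and *Dcn* (0.0385 ± 0.0358) and *Pdgfra* (0.0204 ± 0.0102) were the lowest. Of the neighbours in this order, *Rgs5* and *Acta2*, *Acta2* and *Cd248*, and *Tagln* and *Dcn* were further apart than the larger of their SDs, and the others were not.

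With IL-1β the order was again led by *Sparc* (0.625 ± 0.227 RPKM) and *Rgs5* (0.491 ± 0.134), and *Pdgfrb* moved from sixth to ninth place. In the groups with butyrate *Cd248* came first, with 2.29 ± 0.214 RPKM in the combination and 2.17 ± 0.133 RPKM with butyrate alone. The next gene was *Sparc* at 0.799 ± 0.402 RPKM in the combination and *Rgs5* at 0.922 ± 0.227 RPKM with butyrate, in each case further below than the larger SD.

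*Cd248* encodes endosialin, a transmembrane glycoprotein on the surface of pericytes and activated fibroblasts, and is a gene of a single exon (chr19:5068078-5070682, plus strand). The control libraries held 11, 19, 20 and 19 reads (0.513, 0.792, 0.956 and 0.813 CPM), and those with IL-1β 6, 8, 26 and 24 reads (0.310, 0.389, 1.35 and 0.866 CPM). The libraries with IL-1β + butyrate held 155, 121, 144 and 127 reads (6.29, 5.14, 6.31 and 6.12 CPM), and those with butyrate 120, 120, 112 and 125 reads (6.03, 5.33, 5.85 and 5.38 CPM). Every library with butyrate was above every library without it, and the 8 libraries with butyrate overlapped whether or not IL-1β was present.

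Butyrate raised *Cd248* 7.28-fold over control (log2 fold change 2.86 ± 0.243, SE, adjusted p = 3.06e-10) and 8.06-fold in the presence of IL-1β (3.01 ± 0.249, adjusted p = 1.63e-10). In both comparisons this was the 8th largest rise among the 18587 genes tested. The difference between these effects was 0.15 on the log2 scale (95% CI -0.57 to 0.86, adjusted p = 0.98), and IL-1β alone gave -0.07 (95% CI -0.70 to 0.57, adjusted p = 0.905). The combination and butyrate alone differed by 0.08 (95% CI -0.25 to 0.42). Under the 25 alternatives of the processing, the rise over control was between 2.72 and 2.97.

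The rise of *Cd248* was not seen in the sum of the other genes. In control islets *Sparc* (mean 3.73 CPM) and *Rgs5* (3.61) gave the largest parts of that sum (11.6). *Pdgfra*, also raised by butyrate, had 0.204 CPM in control and 0.715 with butyrate, so its change could hardly show in the sum. *Cd248* took 4.31% to 8.81% of the reads on the 10 genes in control libraries, 4.82% to 12.1% with IL-1β, 32% to 54.4% with IL-1β + butyrate and 28.1% to 34.8% with butyrate. The other 9 genes summed to 8.03 to 18.1 CPM in control, 4.45 to 9.74 with IL-1β, 5.28 to 13.4 with the combination and 9.99 to 14.997 with butyrate, ranges that overlap between control and either group with butyrate.

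Summed markers of some other cell types differed with butyrate as well, which raised 8.53% and lowered 11.4% of all genes. The summed CPM of 11 endothelial markers was 14.4 to 16.3 in control, 12.2 to 18.6 with IL-1β, 21.4 to 26.2 with IL-1β + butyrate and 19.99 to 21.5 with butyrate, no marker was at 0 throughout a group, and 1 of the 8 tested was raised by butyrate alone. Summed T cell markers (7 genes) were 3.08 to 4.84, 2.74 to 4.43, 5.82 to 6.58 and 4.77 to 5.20 CPM in the same order, with *Cd3d* at 0 in both groups with butyrate, and 5 mesothelial markers were at 40.03 to 62.8 CPM in control and at 12.5 to 14.3 CPM with butyrate, where 1 of 3 tested genes was lowered. Summed delta cell markers (4 genes) were 1696 to 1995 CPM in control, 1747 to 2222 with IL-1β, 2627 to 3190 with the combination and 2395 to 2775 with butyrate, which raised 1 of the 4. Summed macrophage markers (8 genes) were 130 to 143 CPM in control and 86.2 to 107 with butyrate, which lowered 1 of the 8. Summed duct markers (6 genes) were 358 to 387 CPM in control and 335 to 355 with butyrate, with 0 of 5 tested genes called. The median log2 fold changes of the tested markers with butyrate were 0.46 (endothelial), 0.15 (T cell), -0.16 (mesothelial), 0.15 (delta), -0.52 (macrophage) and 0.20 (duct). A sum can thus move otherwise than its median marker. The part of these cell types in the change of *Cd248* was not tested.

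**Figure D2:**
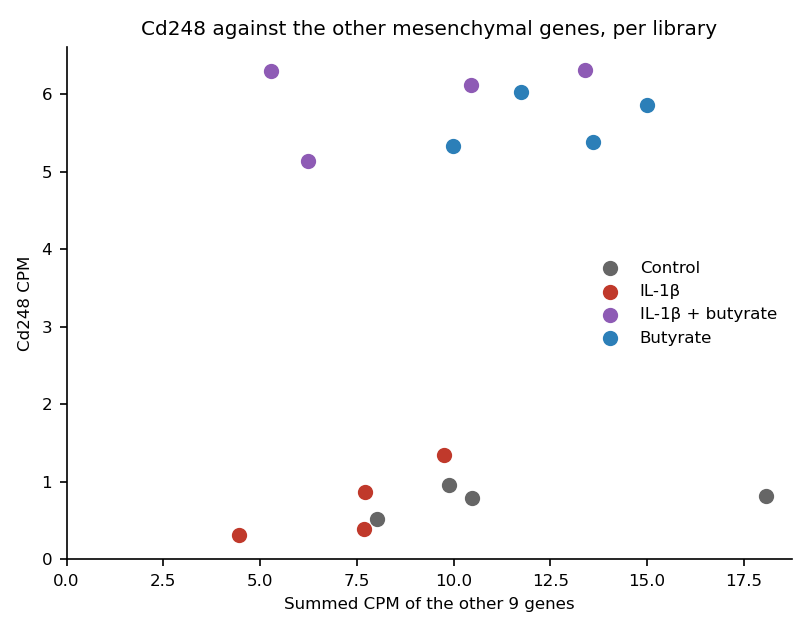
*Cd248* (y axis, CPM) against the summed CPM of the other 9 mesenchymal genes (x axis), with a point for each of the 16 libraries coloured by condition. The libraries with butyrate form a band at 5.14 to 6.31 CPM of *Cd248*, over sums of the other genes from 5.28 to 14.997 CPM. The libraries without butyrate lie at or below 1.35 CPM of *Cd248*.

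*Pdgfra* encodes the receptor for PDGF-A and other PDGF chains that marks fibroblasts and mesenchymal progenitors (chr5:75152292-75198215, plus strand). It was counted at 7, 4, 5 and 2 reads in control, 2, 14, 9 and 10 with IL-1β, 15, 11, 20 and 10 with IL-1β + butyrate and 12, 15, 14 and 20 with butyrate. In CPM the control libraries (0.0856 to 0.327) lay below all libraries of either group with butyrate (0.467 to 0.876), and those with IL-1β (0.103 to 0.682) overlapped with every other group.

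Butyrate raised *Pdgfra* 3.50-fold over control (log2 fold change 1.81 ± 0.454, adjusted p = 0.00163). This call was kept in the 23 alternatives that gave an adjusted p, but only just without control replicate 4 (adjusted p = 0.00982). The combination raised *Pdgfra* 2.97-fold over control (1.57 ± 0.458, adjusted p = 0.00405). The rise in the combination was not called without control replicate 2 (adjusted p = 0.0156), control replicate 4 (0.022) or IL-1β + butyrate replicate 3 (0.0243). Butyrate in the presence of IL-1β gave 0.59 (95% CI -0.20 to 1.38, adjusted p = 0.256), and the difference between the butyrate effects was -1.22 (95% CI -2.44 to 0.01, unadjusted p = 0.0451, adjusted p = 0.663). In its exons *Pdgfra* overlaps the genes Gm42802 (456 bases) and Gm42803 (166 bases) on the opposite strand, and the strand setting of the counting is not given in the sources used here, so that their reads cannot be told apart.

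*Pdgfrb* encodes the PDGF receptor that recruits pericytes to capillaries (chr18:61045150-61085061, plus strand). The control libraries held 26, 24, 25 and 44 reads (1.00 to 1.88 CPM), those with IL-1β 4, 6, 9 and 20 (0.207 to 0.722 CPM), those with the combination 15, 12, 30 and 19 (0.509 to 1.31 CPM) and those with butyrate 23, 29, 40 and 41 (1.16 to 2.09 CPM). All 4 libraries with IL-1β were below all control libraries, and the combination overlapped with every other group.

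IL-1β lowered *Pdgfrb* 2.97-fold (log2 fold change -1.57 ± 0.364, adjusted p = 0.00101). By fold this was the 22nd largest fall of all tested genes, but by p-value in the edgeR test the gene was 2147th. This call held in all 25 alternatives, with values from -2.01 to -1.34. Adding butyrate to IL-1β gave 0.90 (95% CI 0.12 to 1.68, adjusted p = 0.069), and the combination compared with control -0.67 (adjusted p = 0.0869). Compared with butyrate, the combination gave -0.91 (adjusted p = 0.0294), which was called without IL-1β + butyrate replicate 3 (-1.22, adjusted p = 0.00752). Butyrate alone gave 0.24 (95% CI -0.34 to 0.83, adjusted p = 0.571).

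*Rgs5* encodes a regulator of G protein signalling and is a marker of pericytes (chr1:169655501-169695813, plus strand). Reads numbered 45, 97, 73 and 112 in control (2.10 to 4.79 CPM), 32, 38, 58 and 67 with IL-1β (1.65 to 3.01 CPM), 19, 31, 48 and 30 with the combination (0.772 to 2.10 CPM) and 71, 78, 109 and 94 with butyrate (3.46 to 5.70 CPM). The combination lay below all butyrate libraries, and its highest library was just above the lowest control library.

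The combination lowered *Rgs5* 2.97-fold compared with butyrate (log2 fold change -1.57 ± 0.288, adjusted p = 0.000323) and 2.58-fold compared with control (-1.37 ± 0.290, adjusted p = 0.000657). Both calls held in all 25 alternatives. IL-1β alone gave -0.69 (95% CI -1.26 to -0.13, adjusted p = 0.0635), a call only without control replicate 1 among the leave-one-out fits (-0.88, adjusted p = 0.00664), and butyrate alone gave 0.20 (95% CI -0.31 to 0.72). Adding butyrate to IL-1β gave -0.68 (95% CI -1.32 to -0.03, adjusted p = 0.105). In a fit with the replicate number as a block, both IL-1β alone (-0.71, adjusted p = 0.000743) and butyrate added to IL-1β (-0.66, adjusted p = 0.00711) were called. The labels do not state that this number pairs the experiments. The sample numbers in the column names do run through the 4 conditions for each replicate number in turn. The difference between the butyrate effects was -0.88 (95% CI -1.71 to -0.05, unadjusted p = 0.0375, adjusted p = 0.634).

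*Thy1* encodes a glycoprotein anchored to the surface of fibroblasts, T cells and neurons (chr9:44043384-44048579, plus strand). It was counted at 13, 10, 11 and 32 reads in control, 6, 16, 9 and 11 with IL-1β, 16, 7, 32 and 25 with the combination and 16, 9, 14 and 18 with butyrate. The 4 groups overlapped, and the log2 fold changes were -0.59 with IL-1β (adjusted p = 0.374), -0.12 with butyrate (0.867) and 0.85 for butyrate in the presence of IL-1β (0.151).

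*Acta2* encodes smooth muscle α-actin, the contractile protein of pericytes, smooth muscle and activated stellate cells (chr19:34241090-34255590, minus strand). The control libraries held 16, 18, 19 and 21 reads (0.747, 0.751, 0.908 and 0.899 CPM), those with IL-1β 2, 2, 7 and 12 (0.103, 0.0974, 0.363 and 0.433 CPM), those with IL-1β + butyrate 1, 3, 5 and 9 (0.0406, 0.127, 0.219 and 0.433 CPM) and those with butyrate 13, 9, 13 and 10 (0.653, 0.400, 0.679 and 0.430 CPM). The control libraries were above all other libraries, and the highest libraries with IL-1β or the combination reached the lowest with butyrate.

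IL-1β lowered *Acta2* 3.11-fold (log2 fold change -1.64 ± 0.441, adjusted p = 0.00356), and the combination 4.09-fold (-2.03 ± 0.473, adjusted p = 0.000384). With IL-1β this was the 17th largest fall by fold, but by p-value in the edgeR test the gene was 2723rd. The first call was lost without control replicate 3 or 4 (adjusted p = 0.0112 each), IL-1β replicate 1 (0.0118) or IL-1β replicate 2 (0.0179), and the second held in all 24 alternatives that gave an adjusted p. Butyrate alone gave -0.62 (95% CI -1.39 to 0.14, adjusted p = 0.217), although its libraries did not overlap with control. The combination compared with butyrate gave -1.41 (adjusted p = 0.0307), which was called without IL-1β + butyrate replicate 4 (-2.03, adjusted p = 0.00633).

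Markers of other cell types also moved with IL-1β, which raised 11.2% and lowered 6.59% of all genes. The summed CPM of 8 macrophage markers was 130 to 143 in control and 185 to 232 with IL-1β, where 7 were raised and 1 was lowered. That of 8 beta cell markers was 214385 to 237179 and 137754 to 179437, where 6 were lowered and 1 was raised. That of 7 Schwann cell markers was 13.04 to 19.3 and 9.88 to 12.5, with 0 of 5 tested genes called. Summed duct markers (6 genes) were 358 to 387 and 408 to 474 CPM, with 2 of 5 tested genes raised, and of 4 tested acinar markers 2 were raised. The summed CPM of endothelial markers overlapped between these groups, and 2 of the 8 tested were raised. Median log2 fold changes with IL-1β were 2.22 (macrophage), -0.55 (beta cell), -0.48 (Schwann cell), 0.23 (duct), 2.40 (acinar) and -0.13 (endothelial). The part of these cells in the changes of *Pdgfrb* and *Acta2* was not tested.

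*Tagln* encodes transgelin, an actin-binding protein of smooth muscle (chr9:45929619-45936058, minus strand), and had too few reads for the test across genes. It was counted at 11, 7, 9 and 10 reads in control, 1, 4, 7 and 8 with IL-1β, 8, 12, 10 and 7 with the combination and 5, 7, 5 and 3 with butyrate. The means were 0.416 ± 0.0917 CPM in control, 0.224 ± 0.134 with IL-1β, 0.402 ± 0.0875 with the combination and 0.238 ± 0.0772 with butyrate (SD, n = 4), and the combination lay above butyrate without overlap.

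Exact (two-sided) permutation tests of *Tagln* gave p = 0.0571 for IL-1β and for butyrate compared with control, 0.0857 for the combination compared with IL-1β, 0.914 compared with control and 0.0286 compared with butyrate, where 0.0286 is the smallest value that 4 against 4 libraries can give. Adjusted over these 5 comparisons the p-values were from 0.0952 to 0.914. *Tagln* shares 1241 bases of its exons with Gm48529 and 108 with *Pcsk7* on the opposite strand, and their reads cannot be told apart here.

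Of the matrix genes, *Dcn* (decorin, chr10:97479609-97518143, plus strand) and *Lum* (lumican, chr10:97565128-97572703, plus strand) are neighbours that encode small leucine-rich proteoglycans binding collagen fibrils. *Dcn* was counted at 0, 9, 2 and 10 reads in control, 10, 13, 8 and 10 with IL-1β, 8, 7, 26 and 27 with the combination and 13, 8, 4 and 6 with butyrate. The combination compared with control gave 1.66 ± 0.624 on the log2 scale (adjusted p = 0.0275), with overlapping groups, and was called without IL-1β + butyrate replicate 1 (1.92, adjusted p = 0.00962) or replicate 2 (1.93, adjusted p = 0.00884). The 95% CI of *Dcn* spanned 0 in each of the other comparisons.

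*Lum* was counted at 9, 12, 9 and 20 reads in control, 1, 17, 13 and 16 with IL-1β, 8, 19, 25 and 12 with the combination and 16, 18, 13 and 20 with butyrate. Its groups overlapped, and its log2 fold changes lay between -0.17 and 0.50 over the 5 comparisons of 2 groups, with adjusted p of at least 0.388.

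*Sparc* encodes osteonectin, a secreted glycoprotein that binds collagen and calcium (chr11:55394500-55423183, minus strand). Reads numbered 45, 70, 54 and 171 in control, 28, 48, 68 and 60 with IL-1β, 40, 45, 110 and 78 with the combination and 65, 52, 75 and 104 with butyrate. The groups overlapped, control replicate 4 (7.32 CPM) being the highest of the 16 libraries, and none of the log2 fold changes, from -0.67 with IL-1β to 0.35 when butyrate was added to that, was past the threshold (adjusted p of at least 0.337). Without control replicate 4, the value with IL-1β was -0.11.

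**Figure D3:**
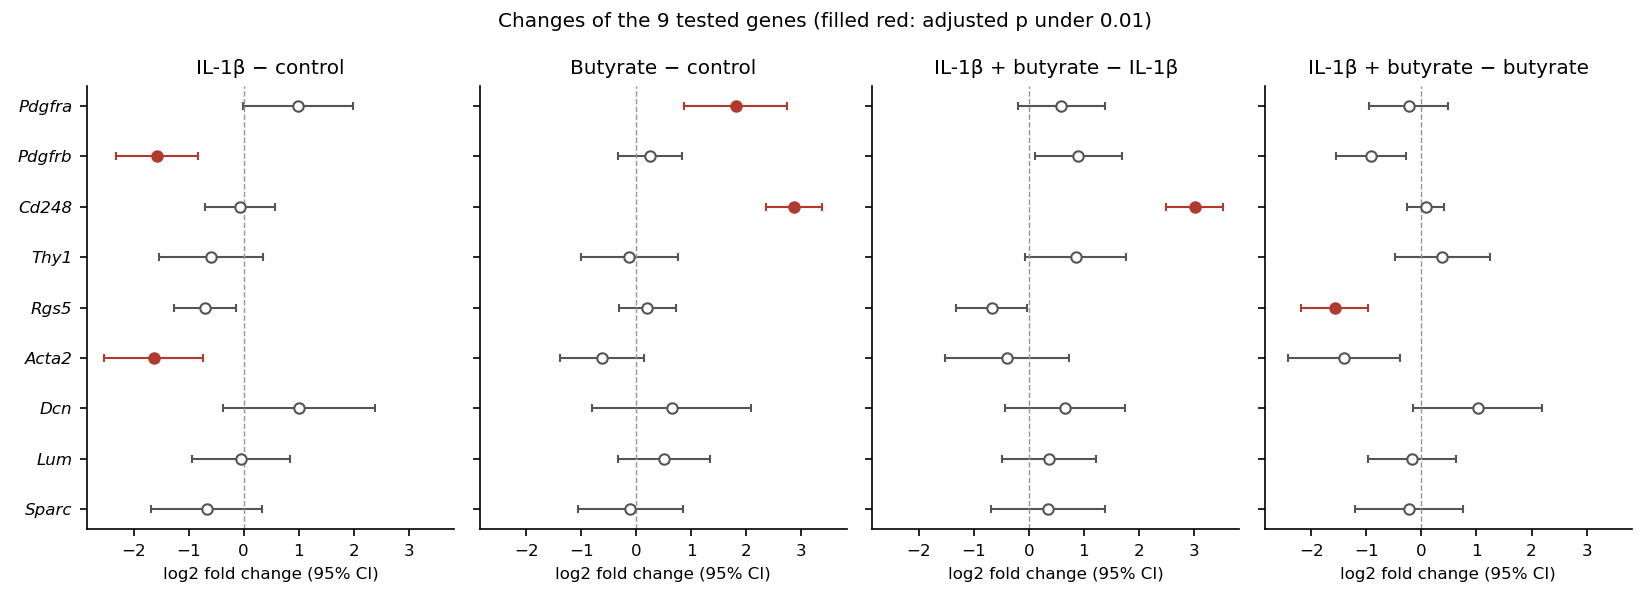
Log2 fold change (x axis) with its 95% confidence interval for the 9 tested genes in 4 comparisons, filled red where the adjusted p was under 0.01. *Cd248* stands at 2.86 and 3.01 where butyrate was added and near 0 in the panels for IL-1β, while *Pdgfrb* and *Acta2* are lowered in the panel for IL-1β compared with control.

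Within a condition the mesenchymal genes varied together from library to library. As deviations of log2 CPM from the condition mean over the 16 libraries, 35 of the 36 pairs of tested genes had a Pearson r above 0, with a median of 0.469. The highest was that of *Rgs5* and *Sparc* (0.809) and the lowest that of *Pdgfra* and *Dcn* (-0.283). These are descriptions, since the points of a library share its depth and scaling, and low counts add noise. No median over pairs of other genes is given here, so the shared variation is not shown to be particular to this set.

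The mean deviation over the 9 genes was lowest in IL-1β replicate 1 (-0.73 on the log2 scale) and highest in IL-1β + butyrate replicate 3 (0.57), where all 9 genes were above their condition mean. In control replicate 4 it was 0.47, with 8 of 9 genes above.

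Among genes with an average of at least 1 CPM, those whose deviations were most like the mean of the set were *Col4a1* (r = 0.956), *Vim* (0.944), *Bgn* (0.941), *Fn1* (0.935) and *Pced1a* (0.931), over 16 libraries and as a description. *Col4a1* encodes a chain of basement membrane collagen, *Vim* the intermediate filament vimentin, *Bgn* the proteoglycan biglycan and *Fn1* fibronectin.

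**Figure D4:**
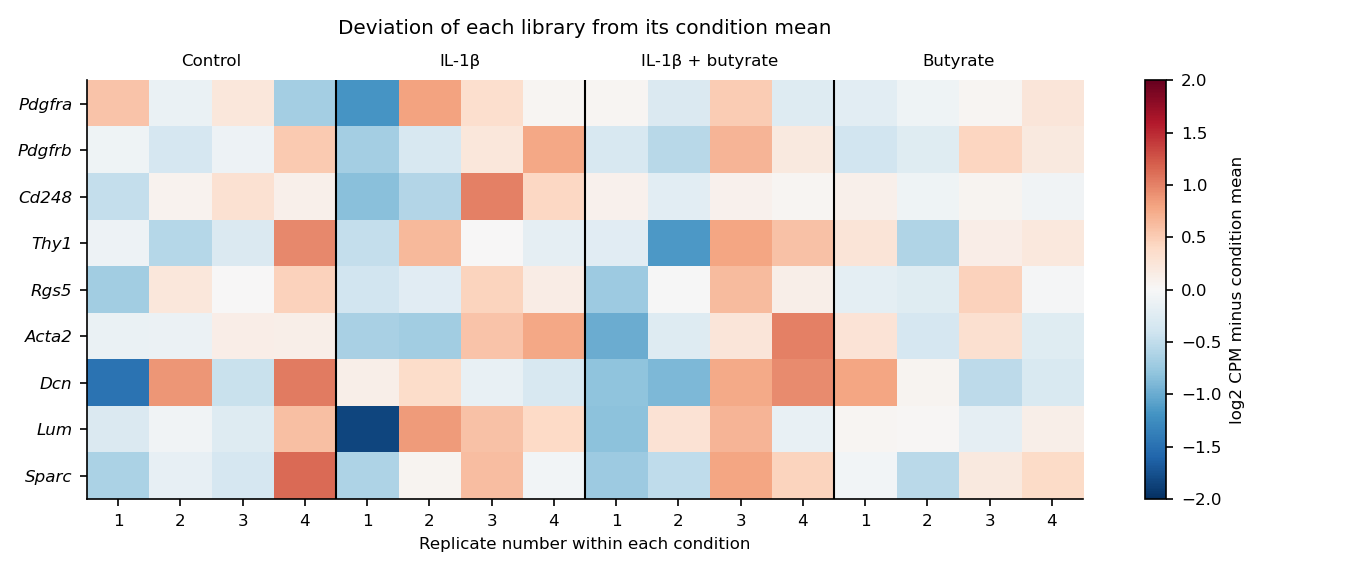
Deviation of log2 CPM from the condition mean (colour, red above and blue below) for the 9 tested genes (rows) in the 16 libraries (columns, by condition and replicate number). IL-1β + butyrate replicate 3 is red in all 9 rows and IL-1β replicate 1 is blue in 8 of 9.

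The lists of related genes held 85 genes, of which 56 were tested, and their called shares were 21.4% with IL-1β, 14.3% with butyrate, 16.1% for the combination compared with IL-1β, 28.6% compared with control and 14.3% compared with butyrate, and 0 for the difference between the butyrate effects. These shares stand beside 17.8%, 19.9%, 19.5%, 30.6%, 14.8% and 0.0968% of all genes. The numbers of genes raised and lowered were 7 and 5, 3 and 5, 6 and 3, 10 and 6, and 7 and 1 in the same order of comparisons.

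Among the PDGF ligands, *Pdgfb*, whose product binds PDGFRβ, was raised by IL-1β, from 1.80 ± 0.346 to 4.21 ± 0.617 CPM (log2 fold change 1.23, adjusted p = 5.05e-06), where its receptor gene was lowered. It was 3.16 ± 0.620 CPM with the combination and 1.51 ± 0.397 CPM with butyrate, and the combination was above both control (0.80) and butyrate (1.06). *Pdgfa*, at 31.1 to 38.0 CPM in all libraries, *Pdgfc* and *Pdgfd* were not called in any comparison.

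Of 12 pericyte markers 8 were tested, and IL-1β lowered 3 of them (6.59% of all genes) and raised 0 (11.2% of all genes). The other 5 were not called, and the median log2 fold change was -0.40. *Notch3*, the receptor that maintains mural cells, fell from 5.22 ± 0.694 to 2.99 ± 0.501 CPM (log2 fold change -0.80, adjusted p = 0.000853), a call kept in all 25 alternatives. *Cspg4*, the proteoglycan NG2, gave -1.04 (adjusted p = 0.00629, lost in 7 of 25 alternatives) and *Abcc9*, a subunit of the potassium channel of mural cells, -0.59 (0.00794, lost in 17 of 25). *Kcnj8*, on the same list and named after its values had been seen, went the other way without a call. It had 0.450 ± 0.203 CPM in control and 0.745 ± 0.116 with IL-1β. The combination lowered *Notch3* compared with control (-0.81) and with butyrate (-0.81). *Abcc9* was also lowered by butyrate (-1.09), by the combination compared with IL-1β (-0.82) and compared with control (-1.41).

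The contractile genes, 12 tested of 16, were called in both directions. IL-1β raised 3 (11.2% of all genes) and lowered 1 (6.59% of all), with a median log2 fold change of -0.17. Butyrate raised 1 (8.53% of all) and lowered 2 (11.4% of all). The genes raised by IL-1β, *Cald1*, *Vcl* and *Tpm1*, had control means of 14.8, 11.9 and 54.2 CPM, where the 10 mesenchymal genes together gave 8.54 to 18.9 CPM. Which cells held these reads was not tested. *Myh11*, smooth muscle myosin, was lowered by IL-1β from 1.18 ± 0.304 to 0.505 ± 0.0974 CPM (log2 fold change -1.20, adjusted p = 0.000855) and was higher in the combination than with IL-1β (1.17, adjusted p = 0.00111). *Cald1*, caldesmon, was raised by IL-1β from 14.8 ± 2.38 to 33.9 ± 2.56 CPM (1.20, adjusted p = 2.81e-09), and was raised in the combination compared with control (1.45) and with butyrate (1.12). *Vcl*, vinculin, was raised by IL-1β (0.64), and in the combination was lower than with IL-1β (-0.39) and higher than with butyrate (0.44). *Smtn*, smoothelin, was lowered by butyrate (-1.14) and by the combination compared with control (-1.48). *Srf*, serum response factor, was lowered by butyrate by smaller amounts (-0.26, and -0.27 in the presence of IL-1β) and by the combination compared with control (-0.34). *Tpm1*, tropomyosin 1, was raised by IL-1β (0.29, adjusted p = 0.000517) and in the combination compared with control (0.33, adjusted p = 5.24e-05) and with butyrate (0.29, adjusted p = 0.000493).

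*Tpm2*, tropomyosin 2, was below the level set for naming and was picked after its values had been seen, because it shared the pattern of *Cd248*. It had 5 to 6 reads per library in control, 4 to 5 with IL-1β, 16 to 24 with the combination and 14 to 27 with butyrate, and was raised by butyrate alone (log2 fold change 1.96, adjusted p = 1.79e-05) and in the presence of IL-1β (2.00, adjusted p = 2.88e-05).

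Fibroblast markers, 12 tested of 16, had 1 raised and 1 lowered with IL-1β (11.2% and 6.59% of all genes) and with butyrate (8.53% and 11.4% of all genes). *Igfbp4*, which binds insulin-like growth factors, was raised in all 5 comparisons, from 1.36 ± 0.523 CPM in control to 3.47 ± 0.186 with butyrate, 10.1 ± 0.613 with IL-1β and 22.8 ± 4.32 with both. With both, the 10 mesenchymal genes together gave 11.4 to 19.7 CPM. *Fbln1*, fibulin 1, was lowered by IL-1β (log2 fold change -0.85, adjusted p = 0.0097, lost in 17 of 25 alternatives), by butyrate (-1.07) and by the combination compared with control (-1.15). *Serpinf1*, the secreted factor PEDF, was higher in the combination than with IL-1β (3.24-fold) and in control (2.52-fold).

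Of 11 small leucine-rich proteoglycans besides *Dcn* and *Lum*, 4 were tested, and the call was *Podn*, podocan, lowered by butyrate (log2 fold change -1.21, adjusted p = 0.00191) and by the combination compared with control (-0.90), a gene named after its values had been seen. Of the SPARC family, 6 tested of 7, *Smoc1* was raised by IL-1β (1.12, adjusted p = 0.000179) and in the combination compared with control (1.44) and with butyrate (1.16), and *Spock1* by butyrate (0.63, adjusted p = 0.000315), by butyrate in the presence of IL-1β (0.57) and by the combination (0.92). Of 5 tested stellate cell markers *Angptl6* was raised in the combination compared with IL-1β (0.77) and control (0.59), the latter without a call in 1 of 25 alternatives, while *Vim* was not called. Of 5 tested mesenchymal transcription factors *Meox1* was raised by IL-1β (1.06), and in the combination compared with control (0.72) and with butyrate (1.12). Which cells of the whole islets held the reads of the genes in these lists was not tested.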

How the data were processed

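Gene expression was measured by RNA sequencing of whole mouse islets in 16 libraries. The authors mapped single-end reads to GRCm38.p5 (mm10) with STAR 2.5.3a, and the deposited values are raw counts of reads per gene, whole numbers without normalization. The submitters' processing notes also name bcl2fastq 2.19.1, FastQC 0.11.7, MultiQC 1.7 and DESeq2. The annotation release, the strand setting and filters on reads are not given in the sources used here. The table held 0 columns of other samples.

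Symbols, positions and exon lengths were taken from GENCODE M21, which held 52489 of the 52636 identifiers. In R 4.3.3, edgeR 4.0.16 was used to remove low counts (filterByExpr kept 18587 genes), to scale by TMM and to fit the 4 conditions over all 16 libraries (robust quasi-likelihood). SE and 95% CI are Wald values of this fit. The threshold was that of the study, 0.01, on p-values adjusted after Benjamini and Hochberg over all tested genes. *Tagln* was tested by exact permutation. CPM are TMM-scaled, log2 CPM used a prior count of 2, and RPKM divide CPM by the length of all exons. The scripts were tested on simulated data.

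The genes and lists were chosen with earlier results of these data known. Named from the related lists are called genes with an average CPM of at least 1, at most 3 per list and comparison, and the 5 genes most like the set. Replicates are independent experiments per the labels. Total counts were from 18635943 to 25955943, and small counts limit the precision of most of the genes. Alternatives were other scalings, DESeq2 1.42.0, other filters, fits of the compared groups only, a replicate block, a threshold of 0.05 and leaving out each library.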

Additional observations from a re-analysis of the deposited data

Results flagged for a closer look

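In each of 44 groups of 4 libraries, the highest and lowest values were compared with the rest, and 2 groups held a library apart from the others by more than the 95% critical value of Dixon's ratio, where chance flags about 1 in 20 groups. For *Cd248*, IL-1β + butyrate replicate 2 was the lowest at 5.14 CPM, and the other 3 libraries lay between 6.12 and 6.31 CPM. For *Sparc*, control replicate 4 was the highest at 7.32 CPM, and the other 3 control libraries lay between 2.10 and 2.92 CPM. In that library 8 of the 9 tested mesenchymal genes were above the control mean.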

How the results depend on the processing

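Of 54 pairs of a tested gene and a comparison, 10 were called. In the alternatives that gave an adjusted p, the direction of all 10 was kept, 8 kept the call, and 5 of the 44 others gained a call in some alternative. The number of genes called was 2 for IL-1β compared with control (1 with an average CPM of at least 1), 1 for the combination compared with IL-1β (2 without a filter), 2 for butyrate compared with control (1 with DESeq2, which gave no adjusted p for *Pdgfra*, and 1 with an average CPM of at least 1), 4 for the combination compared with control (2 with an average CPM of at least 1), and 1 for the combination compared with butyrate (2 without a filter, 3 at an adjusted p under 0.05). The filter on average CPM removes *Pdgfra* and *Acta2* from the test. Without a filter, *Rgs5* was added with IL-1β compared with control (adjusted p = 0.000675). *Dcn* was added for the combination compared with control without a filter (adjusted p = 0.000321) and at an adjusted p under 0.05 (0.0275). Leaving out each library gave 1 to 3, 1, 2, 3 to 5 and 1 to 2 genes in the same order. The difference between the butyrate effects gave 0 in each alternative among the genes with an adjusted p, which were 3 of the 9 with DESeq2 and 4 with an average CPM of at least 1.

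In the fit with a replicate block, 2 genes were called for the combination compared with IL-1β (*Rgs5* added, adjusted p = 0.00711) and 2 compared with butyrate (*Pdgfrb* added, adjusted p = 0.00247), and *Rgs5* was also called with IL-1β (adjusted p = 0.000743). Libraries with the same number had correlated deviations in 17 of 24 pairs (r over 0.1, median 0.118), and 14 of 16 libraries correlated best with their own number. This is a hint from the data, as is the order of the sample numbers in the column names, but the labels do not state a pairing.

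Over all genes, the calls raised and lowered by IL-1β were 2087 and 1224, 1914 and 1800 with upper-quartile scaling, and 2798 and 708 with library size only. For the combination compared with IL-1β they were 1563 and 2066 (2137 and 1566 with the upper quartile), for butyrate 1585 and 2112 (2207 and 1566), for the combination compared with control 2937 and 2751 (3805 and 1884 with library size), and compared with butyrate 1844 and 903 (1612 and 1420 with the upper quartile, 3153 and 451 with library size). The 18 calls for the difference between the butyrate effects became 52 with DESeq2, 95 without a filter, 132 with the block and 39 at 0.05, and at 0.05 the combination compared with IL-1β had 5595 calls against 3629. The reads per library limit the precision of the low genes, with 1 to 21 for *Acta2*, 2 to 20 for *Pdgfra* and 0 to 27 for *Dcn*.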
